A study of Rattus norvegicus with 18 samples.

Results

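The circadian clock genes Per1 (ENSRNOG00000007387), Per2 (ENSRNOG00000020254), Arntl (ENSRNOG00000014448), Nr1d1 (ENSRNOG00000009329) and Dbp (ENSRNOG00000021027) were followed in the retina of diabetic rats. They were chosen by their Ensembl gene numbers and symbols, and all 5 were present among the 32623 genes of the count and FPKM tables. RNA had been sequenced from 18 whole retinae of male Wistar rats, with 6 animals in each of 3 groups. NC were age-matched healthy controls. DC were rats made diabetic at 8 weeks of age with 35 mg/kg intravenous streptozotocin, which destroys the beta cells of the pancreas, and counted as diabetic above 14 mmol/L blood glucose. DC + Lixi were rats made diabetic in the same way that received the GLP-1 receptor agonist lixisenatide subcutaneously (150 µg/kg, 5 days a week). For NC and DC a placebo is labelled as treatment. All animals lived in a cycle of 12 h light and 12 h darkness, and the retinae were taken after 12 weeks. At which hour each animal was killed is not given in the sources used here. Clock phase and group therefore cannot be told apart.

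The circadian clock is a loop of transcription and translation that runs with a period of about a day in most cells. BMAL1, the product of Arntl, pairs with CLOCK and activates genes that carry an E-box, among them Per1, Per2, Nr1d1 and Dbp. PER proteins then hold back the BMAL1 pair together with cryptochromes, while REV-ERBα, the product of Nr1d1, represses Arntl in a second loop. In tissues with a running clock, Arntl RNA is therefore high when Nr1d1, Dbp and Per RNA are low. The retina holds a clock of its own, which is known to time the release of dopamine and melatonin and the shedding of photoreceptor discs.

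The promoters of Arntl, Per2 and Nr1d1 are shown because they hold letters that match elements known from the clock. Of the 5 genes, 5 matched a RefSeq promoter (build GRCr8, Arntl under its newer symbol Bmal1), with 2 start sites for Nr1d1 and 1 for each of the others. The 250 bases before each start were searched on both strands for the E-box CACGTG, the variant CACGTT, the D-box TTATGTAA (bound by DBP), the half-site AGGTCA (bound by ROR and REV-ERB proteins), the ROR/REV-ERB response element (RORE) consensus, and TGACGT, the larger part of the cAMP response element. AAAGTAGGTNA was derived from the Arntl promoter itself (the RORE match, with N where a nearly identical stretch differs), and its matches overlap those of RORE and AGGTCA. Capitals mark the matches in 5′ to 3′ direction.
Arntl (chr1:176766078-176766327, plus strand, ROR/REV-ERB type elements in capitals): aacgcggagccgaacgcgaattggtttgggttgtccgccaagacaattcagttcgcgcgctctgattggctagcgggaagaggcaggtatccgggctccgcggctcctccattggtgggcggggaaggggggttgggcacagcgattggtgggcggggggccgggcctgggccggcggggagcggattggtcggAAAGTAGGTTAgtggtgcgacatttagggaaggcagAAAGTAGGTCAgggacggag
Per2 (chr9:99496994-99497243, minus strand, D-box and CACGTT in capitals): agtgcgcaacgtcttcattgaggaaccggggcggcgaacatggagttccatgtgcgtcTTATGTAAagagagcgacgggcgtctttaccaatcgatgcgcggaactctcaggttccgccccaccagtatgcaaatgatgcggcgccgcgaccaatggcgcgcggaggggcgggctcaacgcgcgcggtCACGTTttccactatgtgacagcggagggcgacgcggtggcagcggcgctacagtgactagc
Nr1d1, start site inside the gene (chr10:84229455-84229704, minus strand, E-box in capitals): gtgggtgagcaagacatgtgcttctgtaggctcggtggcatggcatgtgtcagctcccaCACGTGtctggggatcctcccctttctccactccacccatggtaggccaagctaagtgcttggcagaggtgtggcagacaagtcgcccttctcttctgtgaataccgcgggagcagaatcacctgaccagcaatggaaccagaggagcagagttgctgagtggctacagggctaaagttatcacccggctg

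In the Arntl promoter, the matches to AAAGTAGGTNA began 56 and 20 bases before the start, and the one nearer to it also matched the RORE consensus. Of 33469 promoter windows of this length, 0.317% held the RORE consensus and 14.1% held AGGTCA. AAAGTAGGTNA was in 0.0359% of windows, from which nothing can be read for Arntl, since the letters were taken from its own promoter. The Per2 window held a D-box, found in 0.828% of windows, and CACGTT 62 bases before the start, found in 4.07%. The E-box of Nr1d1 lay 191 bases before the inner start, and 5.59% of windows held 1. The window at the outer start of Nr1d1 held CACGTT on the opposite strand. In the windows of Per1 and Dbp none of these letters occurred, and TGACGT, held by 6.95% of windows, was in none of the 6 windows. These matches describe the letters and are no evidence of binding in these retinae.

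The libraries were of similar depth, with 28311638 to 39131627 counts and 49487399 to 68360387 alignments each. Clock genes were measured with 807 to 1286 counts per library for Per2 and 3046 or more for the others, so counting error was small beside the differences between animals. RNA integrity numbers (a score of RNA intactness) were 8.6 to 8.9 in NC, 9.2 to 9.5 in DC and 8.4 to 9.4 in DC + Lixi, and the median RNA concentration was 289.8, 524.5 and 609.9 ng/µl, respectively. RNA integrity of all DC samples thus lay above that of all NC samples. The labelled tissue was not checked against cell type markers, since none of the gene numbers matched a gene name in the tables at hand. For the same reason Clock, the cryptochromes, Per3, Nr1d2 and the other clock genes of the list made for this comparison could not be found, and they are not analysed here.

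Dbp, Arntl and Nr1d1 were abundant in the healthy retina, Per1 was lower and Per2 lowest. Levels of different genes were compared as FPKM, which takes gene length into account. In NC the FPKM was 88.9 ± 7.36 (SD, n = 6) for Dbp, 80.6 ± 5.94 (SD, n = 6) for Arntl, 76.8 ± 7.54 (SD, n = 6) for Nr1d1, 36.3 ± 2.20 (SD, n = 6) for Per1 and 5.67 ± 0.817 (SD, n = 6) for Per2. In NC the range of Arntl (73.6 to 89.3 FPKM) overlapped those of Dbp (82.4 to 102.6 FPKM) and Nr1d1 (71.4 to 91.1 FPKM). Nr1d1 was below Dbp in all 6 NC libraries, with a log2 ratio of -0.21 ± 0.06 (SD, n = 6). Per1 was below these 3 genes, and Per2 below Per1, in all 18 libraries. By mean FPKM over all 18 libraries, Dbp was above 95.7% of the 16524 genes tested and Per2 above 40.8%. In DC the order of the upper genes was different, with Dbp at 97.2 ± 6.31 (SD, n = 6), Nr1d1 at 82.0 ± 5.95 (SD, n = 6) and Arntl at 63.3 ± 7.63 (SD, n = 6). Arntl exceeded Nr1d1 in 5 of 6 NC libraries, in 0 of 6 DC libraries and in 1 of 6 DC + Lixi libraries. In DC + Lixi the FPKM was 91.6 ± 6.78 (SD, n = 6) for Dbp, 80.4 ± 4.35 (SD, n = 6) for Nr1d1 and 72.8 ± 8.72 (SD, n = 6) for Arntl.

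**Figure D1:**
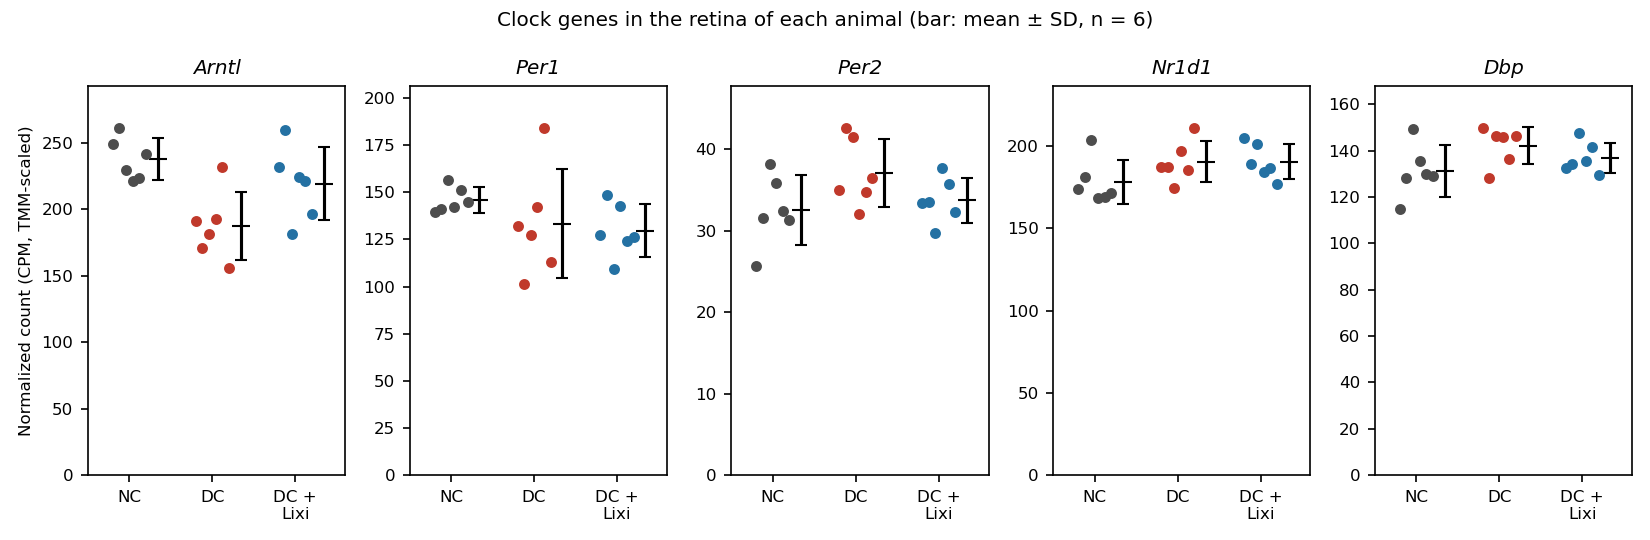
Normalized count (CPM, scaled by TMM) of the 5 clock genes in each of 18 retinae, by group, with mean ± SD beside the points. In Arntl 5 of 6 DC animals lie below all NC animals, and in Per1 4 of 6 DC animals lie below and 1 above all NC animals. In Per2, Nr1d1 and Dbp most DC animals lie within the NC range.

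To find out whether diabetes changed the clock genes of the retina, DC was compared with NC. Arntl, the activator of the loop, was the only one of the 5 genes with an adjusted p under 0.05. Its level in DC was 0.788 of that in NC. The normalized count (counts per 1e6 counts, CPM, scaled by TMM) of Arntl was 221.2 to 261.6 (median 235.6) in NC and 156.2 to 232.0 (median 186.1) in DC. In 5 of 6 DC animals it was lower than in every NC animal, and DC animal 425, the highest of its group, lay within the NC range. The NC mean was 237.8 ± 15.8 (SD, n = 6) and the DC mean 187.4 ± 25.7 (SD, n = 6). On the log2 scale the fold change was -0.34 (standard error 0.09, 95% confidence interval -0.53 to -0.16, adjusted p = 0.0147 from edgeR's quasi-likelihood test with Benjamini-Hochberg adjustment over 16524 genes). Among all genes tested, 16% were called in DC vs NC (9.36% higher, 6.69% lower), so 1 called gene of 5 is close to this background. In a whole retina, fewer cells that express a gene and less RNA per cell cannot be told apart.

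The fall of Arntl did not rest on a single animal. It was called without each of the 18 animals in turn (log2 fold change -0.41 without DC 425 to -0.30 without DC 430, highest adjusted p = 0.0405 from edgeR). Leaving out a DC + Lixi animal kept it at -0.34, since these animals are in neither group compared. Arntl was also called with DESeq2 (adjusted p = 0.00214), with limma-voom (adjusted p = 0.0141) and on FPKM values. Adding the RNA integrity number to the model brought the log2 fold change to -0.27 (adjusted p = 0.400 from edgeR, standard error 0.14), and adding RNA concentration gave -0.40 (standard error 0.12, adjusted p = 0.0801 from edgeR). Arntl passed the test in neither fit. All DC samples had higher RNA integrity than all NC samples, so diabetes and RNA integrity cannot be told apart in DC vs NC. In the fit with RNA integrity edgeR called 0 genes in DC vs NC, while 2402 had an unadjusted p under 0.05.

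**Figure D2:**
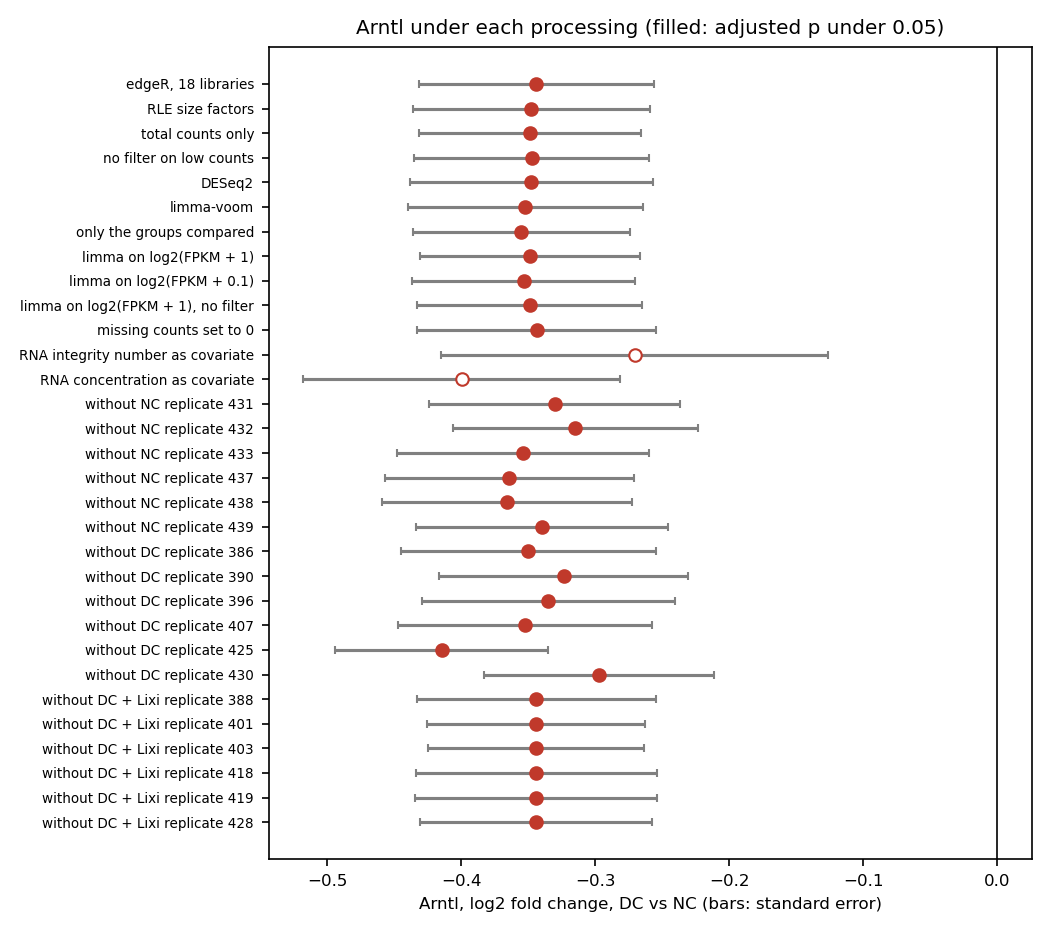
Log2 fold change of Arntl in DC vs NC (x axis, bars are standard errors) under 31 ways of processing the data, filled where the adjusted p was under 0.05. All values are negative, and the 2 open points are the fits with RNA integrity number or RNA concentration as a covariate.

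Per1 and Per2, the repressors that close the loop, did not pass the test in DC vs NC and had fold changes of opposite sign. Per1 CPM was 139.8 to 156.7 (median 143.3) in NC and 101.5 to 184.3 (median 129.7) in DC. Of the DC animals 4 were below all NC animals and 1, animal 425, was above them. Its log2 fold change was -0.13 (95% confidence interval -0.35 to 0.09, adjusted p = 0.437 from edgeR). Without animal 425 it was -0.24 and passed (standard error 0.08, adjusted p = 0.0399 from edgeR), so that the call depended on this animal. Without DC 390 the log2 fold change was -0.07 (adjusted p = 0.715 from edgeR), and without DC 430 it was -0.09 (adjusted p = 0.663 from edgeR). Per2 CPM was 25.7 to 38.3 (median 32.0) in NC and 32.1 to 42.7 (median 35.8) in DC. The groups overlapped, and 2 DC animals lay above the NC range. A log2 fold change of 0.19 was found (95% confidence interval 0.01 to 0.37, unadjusted p = 0.0426, adjusted p = 0.147 from edgeR).

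Nr1d1, which encodes the repressor of Arntl, and Dbp, an output gene that is switched on directly by the BMAL1 pair, were slightly higher in DC than in NC without passing the test. Nr1d1 CPM was 168.7 to 203.7 (median 172.6) in NC and 174.6 to 211.2 (median 187.2) in DC. DC 430 was above the NC range and the rest overlapped, with a log2 fold change of 0.10 (95% confidence interval -0.01 to 0.21, adjusted p = 0.217 from edgeR). The counts of Nr1d1 were not whole numbers in any of the 18 libraries, whereas those of the other clock genes always were. In RefSeq (GRCr8) Nr1d1 overlaps the thyroid hormone receptor gene Thra. Whether the counting used strand is not given in the sources used here. Reads from the stretch that Nr1d1 shares with Thra can therefore not be told apart here, and the length of this stretch was not examined. Per2 overlaps a long non-coding RNA in the same annotation, and Per1, Arntl and Dbp overlap no other gene.

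Dbp CPM was 115.1 to 149.5 (median 129.6) in NC and 128.3 to 150.0 (median 146.2) in DC. Of the DC values, 5 of 6 lay inside the NC range. DC exceeded NC by a log2 fold change of 0.12 (95% confidence interval 0.00 to 0.23, unadjusted p = 0.0423, adjusted p = 0.146 from edgeR). Without NC animal 433, the highest of its group, it was 0.16 and passed (standard error 0.05, adjusted p = 0.0414 from edgeR). Without NC animal 431, the lowest, it was 0.08 (adjusted p = 0.302 from edgeR), and with RNA integrity in the model it was 0.03 (adjusted p = 0.887 from edgeR). Over the 5 genes the median log2 fold change was 0.10, beside 0.00 over all genes tested. Arntl, Per2 and Dbp, 3 of the 5, had an unadjusted p under 0.05, as did 30.7% of all genes. Groups without overlap were seen in 0 of the 5 and in 5.77% of all genes.

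**Figure D3:**
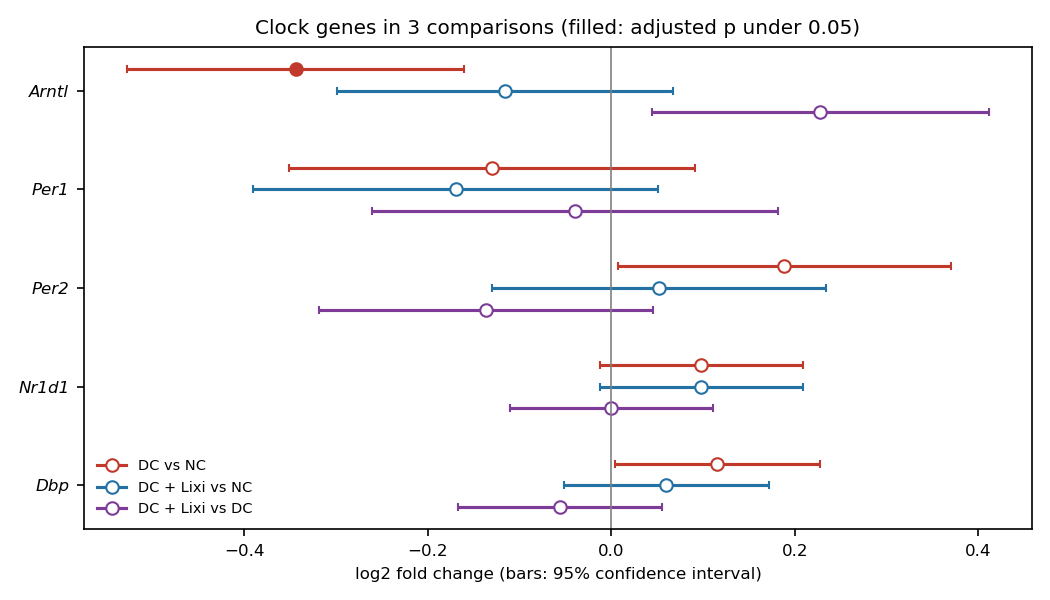
Log2 fold change (x axis) with 95% confidence interval of each clock gene in DC vs NC, DC + Lixi vs NC and DC + Lixi vs DC, filled where the adjusted p was under 0.05. Arntl in DC vs NC, at -0.34, is the only filled point.

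To see whether the clock genes of lixisenatide-treated animals differed from those of healthy animals, DC + Lixi was compared with NC, using the same NC libraries as DC vs NC. None of the 5 genes passed the test with edgeR, 0 of 5 had an unadjusted p under 0.05 (19.3% of all genes), groups without overlap were seen in 0 of 5 (2.12% of all genes), and none was called with DESeq2 or limma-voom. Of all genes, 1.54% were called, which were 157 higher and 97 lower genes, or 139 higher and 294 lower with total counts as the only scaling. Arntl CPM was 181.4 to 260.2 (median 223.2) in DC + Lixi, and 2 of 6 animals lay below all NC animals. The mean was 219.4 ± 27.7 (SD, n = 6), against 237.8 in NC and 187.4 in DC. Against NC the log2 fold change was -0.12 (95% confidence interval -0.30 to 0.07, adjusted p = 0.50 from edgeR).

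Per1 CPM was 109.5 to 148.6 (median 126.7) in DC + Lixi, with 4 of 6 animals below the NC range and a log2 fold change of -0.17 (95% confidence interval -0.39 to 0.05, adjusted p = 0.398 from edgeR). Per2 CPM was 29.8 to 37.7 (median 33.5), inside the NC range in all 6 animals, with a log2 fold change of 0.05 (95% confidence interval -0.13 to 0.23). Nr1d1 stood at 176.9 to 205.1 CPM (median 187.7) and had a log2 fold change of 0.10 (95% confidence interval -0.01 to 0.21), the size it had in DC vs NC. Dbp stood at 129.6 to 147.6 CPM (median 134.9), also inside the NC range, with a log2 fold change of 0.06 (95% confidence interval -0.05 to 0.17). All of these intervals include 0.

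The effect of lixisenatide within diabetes was addressed by DC + Lixi vs DC, which uses the same DC libraries as DC vs NC. No gene of the whole table was called with edgeR (0%, 2048 genes with an unadjusted p under 0.05) or limma-voom, where DESeq2 called 92 genes, none of them a clock gene. Arntl had the largest difference among the 5 clock genes, with a mean 1.17-fold that of DC. In 2 DC + Lixi animals, 401 and 388, Arntl was above the highest DC animal, and the others overlapped with DC. The size of the difference was 0.23 on the log2 scale (95% confidence interval 0.04 to 0.41, unadjusted p = 0.0176, adjusted p = 0.311 from edgeR). In this comparison 1 of the 5 genes, Arntl, had an unadjusted p under 0.05, as did 12.4% of all genes, and groups without overlap were seen in 0 of 5 and in 0.623% of all genes. Over leaving out each animal, the adjusted p of Arntl ranged from 0.0924 to 0.564 and never passed in edgeR.

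The other clock genes showed smaller differences between treated and untreated diabetic animals. Per2 had a log2 fold change of -0.14 (95% confidence interval -0.32 to 0.05), Dbp of -0.06 (95% confidence interval -0.17 to 0.06) and Per1 of -0.04 (95% confidence interval -0.26 to 0.18). The mean of Nr1d1 in DC + Lixi was 1.00-fold that in DC (95% confidence interval 0.926 to 1.08).

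Ratios within a library do not depend on how libraries are scaled, and they showed the balance of Arntl against the genes it stands opposite to. Ratios of FPKM do depend on the gene length behind each value. For Dbp, CPM and FPKM did not move in step between libraries. NC 438 and NC 439 had 130.0 and 129.2 CPM but 83.5 and 90.5 FPKM. Ratios with Dbp can therefore differ from ratios of counts, and the reason was not tested. The log2 ratio of Arntl to Nr1d1 FPKM was -0.17 to 0.18 in NC, -0.78 to -0.02 in DC and -0.50 to 0.11 in DC + Lixi. The group means were 0.07 ± 0.13, -0.38 ± 0.25 and -0.15 ± 0.20 (SD, n = 6 each), and the ranges of NC and DC overlapped through NC 433 and DC 425. The log2 ratio of Arntl to Dbp had group means of -0.14 ± 0.14, -0.63 ± 0.22 and -0.34 ± 0.24 (SD, n = 6 each, NC, DC and DC + Lixi). The log2 ratio of Per2 to Arntl had group means of -3.84 ± 0.27, -3.29 ± 0.30 and -3.66 ± 0.15 (SD, n = 6 each, in the same order). In these 3 ratios, which all contain Arntl, DC + Lixi took a place between NC and DC by its mean. Per1 to Arntl, with group means of -1.15 ± 0.14, -0.95 ± 0.14 and -1.20 ± 0.10 (SD, n = 6 each, in the same order), did not follow this order, and DC + Lixi lay beyond NC. Among the ratios without Arntl, the mean of DC + Lixi lay between NC and DC for Per1 to Per2 and Per1 to Dbp. It lay outside for Per1 to Nr1d1, Per2 to Nr1d1, Per2 to Dbp and Nr1d1 to Dbp. The ratios combine genes already described and were not tested.

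**Figure D4:**
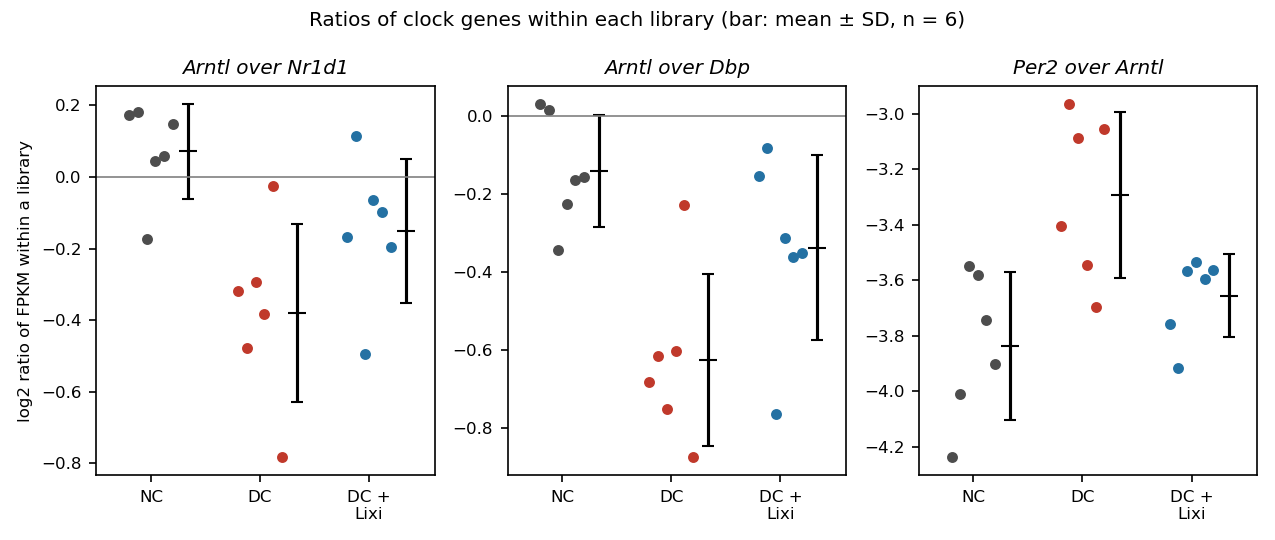
Log2 ratio of FPKM within each library (y axis) for Arntl over Nr1d1, Arntl over Dbp and Per2 over Arntl in the 3 groups, with mean ± SD (n = 6). Mean Arntl over Nr1d1 is 0.07 in NC, -0.38 in DC and -0.15 in DC + Lixi, and the groups overlap.

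Clock genes differed in how much they varied between animals. Pooled over the 3 groups, Per1 was the most variable, with an SD of 0.197 log2 CPM within groups. This was higher than in 93.8% of the 1372 genes of similar level (within 0.5 log2 CPM). Arntl followed with 0.163, above 90.0% of 793 genes of similar level. For Per2 the SD was 0.161, above 85.2% of 2662 genes. Nr1d1 and Dbp, with 0.093 and 0.095, were close to the median of genes of similar level, 0.0814 and 0.0813. This order did not hold in each group. In NC the SD of Per1 was the lowest of the clock genes (0.065), Arntl had 0.095 and Per2 the highest (0.197). In DC Per1 was highest (0.296), and in DC + Lixi Arntl (0.184) was above Per1 (0.157). The spread of Per1 was thus uneven between groups, with a coefficient of variation of 4.58% in NC, 21.6% in DC and 10.8% in DC + Lixi. For Dbp it was 8.55%, 5.75% and 4.85%. These differences in spread were not tested.

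Whether the clock genes varied together between animals was examined over the 10 pairs of genes and 18 animals. Per1 and Arntl were the only pair that passed after adjustment over the 10 pairs. Their log2 CPM had a Pearson's r of 0.69 (two-sided permutation p = 0.00112, adjusted p = 0.0112) and a Spearman's rho of 0.63 (permutation p = 0.00594, adjusted p = 0.0594). Without the 2 animals farthest from the median of Per1, DC 390 and DC 425, r was 0.70 over 16 animals (permutation p = 0.00222, adjusted p = 0.0222). With the group means removed first, r was 0.77 (permutation p = 0.00257, adjusted p = 0.0257) and rho was 0.56 (permutation p = 0.0344, adjusted p = 0.344). Within the groups r was -0.54 in NC, 0.92 in DC and 0.85 in DC + Lixi, each over 6 animals. The positive relation was thus seen within both diabetic groups and not within NC, and the difference was not tested. With the group means removed, the absolute r was above 0.6 for 12.9% of 12235 other genes with Arntl and for 11.6% with Per1. An absolute r above 0.6 is therefore not particular to this pair. These shares include negative r, and how many genes reach an r of 0.77 was not counted.

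The other 9 pairs did not pass over all 18 animals. Nr1d1 and Dbp, both driven through E-boxes, had r = 0.55 and rho = 0.49 (permutation p = 0.0179 and 0.0391, adjusted p = 0.0895 and 0.130), with r = 0.63 within NC, where rho was -0.09 and animal 433 was highest in both, 0.17 within DC and 0.41 within DC + Lixi. Without DC 430 and DC + Lixi 388, the animals farthest from the median of Nr1d1, r was 0.60 and passed (adjusted p = 0.0426 from the permutation test), but with the group means removed it was 0.44 and did not (adjusted p = 0.536 from the permutation test). Arntl and Dbp, which run in opposite phase in other tissues, had r = -0.51 and rho = -0.53 (permutation p = 0.0301 and 0.0276, adjusted p = 0.10 and 0.130), and r = -0.29 with the group means removed (adjusted p = 0.690 from the permutation test). Without DC 430 and DC 390, the animals farthest from the median of Arntl, r was -0.65 and passed (adjusted p = 0.0324 from the permutation test). Arntl and Nr1d1 had r = -0.35 and rho = -0.24 (permutation p = 0.151 and 0.333). Per2 and Dbp had r = 0.97 within NC, where animal 433 was highest and 431 lowest in both, but -0.48 within DC and -0.30 within DC + Lixi.

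**Figure D5:**
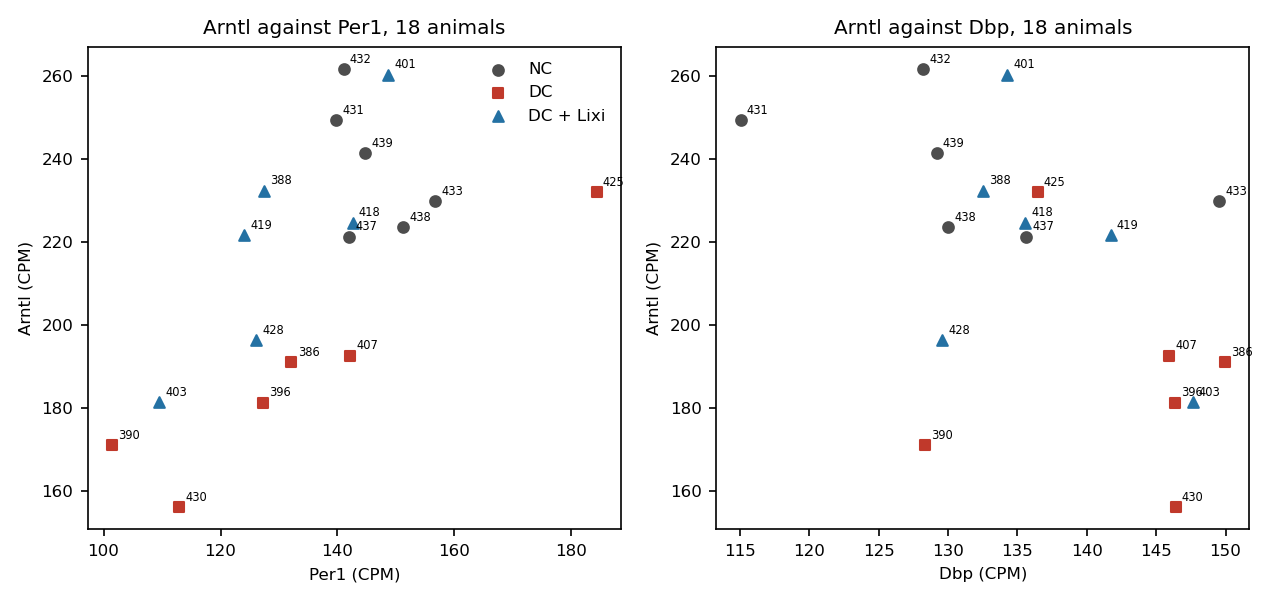
CPM of Arntl (y axes) against CPM of Per1 (left) and Dbp (right) in 18 animals, labelled by animal number and marked by group. Over all animals Arntl was related to Per1 with r = 0.69 and to Dbp with r = -0.51 on the log2 scale.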

How the data were processed

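Single-end reads (50 bp) of 18 retinal mRNA libraries had been aligned, quantified against a rat gene model and normalized by the authors in Array Studio 10.1.3.3, whose DESeq2 module they used for testing. The aligner and the genome build they used are not stated in the labels or methods at hand. The authors deposited estimated counts per gene, of which 26.0% of those above 0 are not whole, FPKM values (counts per gene length and library size) and a sample sheet. The deposited sheet holds alignment counts, the RNA integrity number (a score), RNA concentration in ng/µl and an absorbance ratio of the RNA.

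The count table gives no value in 46805 of 587214 cells. A count was restored from FPKM in 1504 of them, and the others were set to 0, among them 2577 with an FPKM above 0. No cell of the 5 clock genes was missing. Estimated counts were rounded, filtered with filterByExpr (16524 genes kept), scaled by TMM (factors 0.967 to 1.05) and fitted with edgeR 4.0.16 in R 4.3.3, in 1 quasi-likelihood fit over 18 libraries with 15 residual degrees of freedom. p-values were adjusted by Benjamini-Hochberg over all genes tested, and a gene was called at an adjusted p under 0.05. Confidence intervals (95%) were taken from the standard error of this fit. Correlations used log2 CPM with a prior count of 2 and 100000 permutations. The edgeR fit of DC vs NC and the permutation test of Pearson's r were tried on simulated data, and the other steps were not. No library repeated another (chi-square per gene at least 10.4 in 153 pairs).

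Alternatives to this fit were DESeq2 1.42.0, limma-voom (limma 3.58.1), no filter, RLE size factors, scaling by total counts, fits of only the compared groups, limma on log2(FPKM + 1) and log2(FPKM + 0.1), missing counts set to 0, RNA integrity number or concentration as a covariate, and leaving out each animal. The clock genes, the lists and the alternatives were chosen with earlier results of these data known. The naming rule was the 5 clock genes, members of wider clock, glucocorticoid, cAMP and cell type lists, and the genes most like each clock gene. Of the gene numbers 0 matched a symbol in the reference table, so the lists could not be used. Animals differ between groups, and nothing says that they share cages or litters.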

Additional observations from a re-analysis of the deposited data

Results flagged for a closer look

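The Nr1d1 value of NC animal 433 stood apart from its group. At 203.7 CPM it was far above the other NC animals (168.7 to 181.5 CPM), and its gap to the next animal was 0.635 of the range of the group, where Dixon's critical value for 6 samples is 0.625. The 5 genes in 3 groups gave 15 such groups, of which chance flags about 1 in 20. The same animal was the highest of NC in 4 of the 5 clock genes, all but Arntl. Without it the log2 fold change of Nr1d1 in DC vs NC was 0.14 (adjusted p = 0.0565 from edgeR) in place of 0.10.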

How the results depend on the processing

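Over 15 results (5 clock genes in 3 comparisons) and 30 alternatives, 423 of 450 values kept direction and call. Only Arntl in DC vs NC was called in the main fit, so for the other results keeping the call means staying uncalled. Some alternatives also left out an animal of neither group compared, which hardly moved the value. Arntl in DC vs NC lost its call in 2 fits, at -0.27 with RNA integrity and -0.40 with RNA concentration as a covariate. The number of clock genes called in DC vs NC was 0 with either covariate and 1 to 2 when single animals were left out. Reversed log2 fold changes were all of uncalled values. With RNA integrity as a covariate these were 0.0547 for Per1 and -0.0158 for Nr1d1 in DC vs NC, and 0.0867 for Nr1d1 and 0.00623 for Dbp in DC + Lixi vs DC. With RNA concentration they were -0.0221 for Per2 in DC + Lixi vs NC and 0.0106 for Nr1d1 in DC + Lixi vs DC. The value of Nr1d1 in DC + Lixi vs DC was also 0.0029 with RLE factors, 0.0013 without a filter, 0.0028 with DESeq2 and 0.00075 with limma-voom. Leaving out single animals gave -0.0237 to 0.0317 for it, -0.11 to 0.0746 for Per1 in the same comparison and -0.00743 to 0.104 for Per2 in DC + Lixi vs NC. Over all genes, DC vs NC had 2652 called genes, 0 with RNA integrity, 264 with RNA concentration, and 1485 to 3531 without single animals. DC + Lixi vs NC had 254, which became 433 with total counts only, 121 without a filter, 803 with DESeq2, 116 with limma-voom, 153 on unfiltered log2(FPKM + 1), 45 with RNA integrity, 0 with RNA concentration (1642 with an unadjusted p under 0.05), and 27 to 611 without single animals. DC + Lixi vs DC had 92 with DESeq2 and 0 to 5 without single animals. The number of correlated pairs went from 1 to 3 when each pair was taken without the 2 animals farthest from the median of its first gene. The animals left out thus differed between pairs. Without them r of Per1 and Per2 turned to 0.0059. With group means removed r was 0.0624 for Per1 and Dbp and -0.0217 for Per2 and Nr1d1. The causes were not tested. No paired analysis was possible because every animal number occurs in 1 group only.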

Other observations

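More genes varied together with Arntl and Per1 between animals than with the other clock genes. With the group means removed, the absolute correlation of log2 CPM over the 18 animals was above 0.6 for 12.9% of 12235 other genes with Arntl and for 11.6% with Per1. It was above 0.6 for 3.15% with Per2, 3.0% with Nr1d1 and 1.92% with Dbp. The genes most like Arntl were ENSRNOG00000001138 (r = 0.94) and ENSRNOG00000010086 (r = 0.93), and those most opposite were ENSRNOG00000009815 (r = -0.88) and ENSRNOG00000054385 (r = -0.88). The files do not pair these numbers with names. They were picked from 12235 genes for their likeness, and all points share the scaling of their libraries.

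Among the untreated diabetic animals, 425 was the highest in both Arntl (232.0 CPM) and Per1 (184.3 CPM) but in neither Per2 (34.8 CPM), Nr1d1 (185.5 CPM) nor Dbp (136.5 CPM). Of the lixisenatide-treated animals, 401 was the highest in Arntl (260.2 CPM) and Per1 (148.6 CPM), and 403 was the lowest in Arntl (181.4 CPM), Per1 (109.5 CPM) and Per2 (29.8 CPM) and the highest in Dbp (147.6 CPM). In NC the animals followed another order, in which 432 was highest in Arntl (261.6 CPM) and 433 in Per1 (156.7 CPM).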
